A study of Mus musculus with 6 samples.

Results

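The genes described here are 10 genes of B lymphocytes and of antigen receptor recombination, *Ighm*, *Igkc*, *Cd79a*, *Cd79b*, *Ms4a1*, *Rag1*, *Rag2*, *Ebf1*, *Pax5* and *Dntt*, among the 55367 genes of an RNA-seq table of leukemia stem cells (LSCs) of myeloid origin. They were taken from the table by symbol, and all 10 had at least 1 read in at least 1 library. The set was chosen by its values in these same libraries. The fold changes, errors and calls of its genes are therefore given as a description, and their p-values are not printed. Gene lists used further on were also chosen with earlier results of these data known, so adjusted p-values of their named genes are a description too. LSCs were sorted from the bone marrow of mice with acute myeloid leukemia (AML), with 3 libraries from WT and 3 from Piezo1cko mice. The comparison asks how loss of *Piezo1*, a mechanically gated cation channel, bears on the transcriptome of these cells.

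Both groups carried floxed *Piezo1* alleles on a C57BL/6J background and both had been injected with pIpC. Piezo1cko mice also carried *Mx1*-cre, an interferon-inducible Cre that acts in many tissues besides blood, and WT stands for their *Piezo1* fl/fl littermates without Cre. Mice were 8 to 10 weeks old and of both sexes. Lineage-negative marrow cells were transduced with a retrovirus for MLL-AF9, a fusion of a histone methyltransferase with a transcriptional cofactor, and with YFP, and were transplanted into irradiated C57BL/6 recipients. LSCs were sorted as YFP+ cells negative for lineage markers and Sca-1, positive for c-Kit and CD34 and high in CD16/32, a gate that leaves out cells with mature lineage markers. The labels do not say whether libraries of 1 group came from separate mice, so the spread between them may be technical.

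In B cell development, EBF1 and PAX5 are the transcription factors that open and hold the B lineage program, and RAG1 and RAG2 together form the enzyme that cuts V, D and J segments for recombination. Terminal transferase, encoded by *Dntt*, adds untemplated bases to the cut ends. The product, an immunoglobulin heavy and light chain, is carried at the surface by CD79A and CD79B, which signal for it. Transcripts of the *Ighm* constant region that carry no joined V segment are a known feature of immature blood cells.

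The deposited values are log2 expression values that had been normalized and drawn in towards the average of each gene. This shrinkage could be undone. With fitted means held at 0.5 or more, 99.96% of values came out within 0.1 of a whole number of reads, and 72.2% without that floor. Reads on genes were 14745565 to 15483601 in WT libraries and 14112219 to 15094274 in Piezo1cko libraries. Libraries of 1 group differed by more than sampling noise, with chi-square values of 1.55 to 2.82 per degree of freedom over the 6 pairs, so none was counted as a repeat of another. Normalized reads below are these reads divided by each library's size factor. *Piezo1* had 104, 92 and 113 reads in WT replicates 1 to 3 and 35, 58 and 45 in Piezo1cko replicates 1 to 3, which came to 45.9% of the WT level. Of 16 genes on a list of LSC and myeloid progenitor markers, all 16 had reads in both groups. The summed level of that list was 575753 to 618978 normalized reads in WT and 322747 to 348346 in Piezo1cko libraries, most of it from *Mpo* and *Elane*, 2 granule genes of promyelocytes.

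Of the 10 genes, 6 had at least 10 reads over the 6 libraries and 4, *Ms4a1*, *Rag1*, *Pax5* and *Dntt*, had at most 3. For the 5 genes *Ighm*, *Cd79a*, *Cd79b*, *Rag2* and *Ebf1*, every Piezo1cko library had more normalized reads than every WT library. No member lay lower in this sense among the 6. Among all 17352 genes with at least 10 reads, 33.2% lay higher in this way and 33.0% lower, so the groups were apart for most of these genes. On recovered reads, with an absolute log2 fold change over 1 and an adjusted p under 0.05 (limma-voom), *Rag2* and *Ebf1* were the 2 members called higher, beside 12.6% of all genes higher and 12.3% lower. On the deposited scale, with the same thresholds, 0 of the 10 were called, beside 0.257% of 16746 genes higher and 0.561% lower. These shares are the background for the members' counts, and nothing is read from the counts, since the members were picked on this contrast. The median log2 fold change of recovered reads was 0.91 over the 6 members and -0.01 over all genes. Nothing is read from this median either. It rests on the same choice of members, and *Rag2* and *Ebf1* reached 10 reads only through the Piezo1cko libraries.

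**Figure D1:**
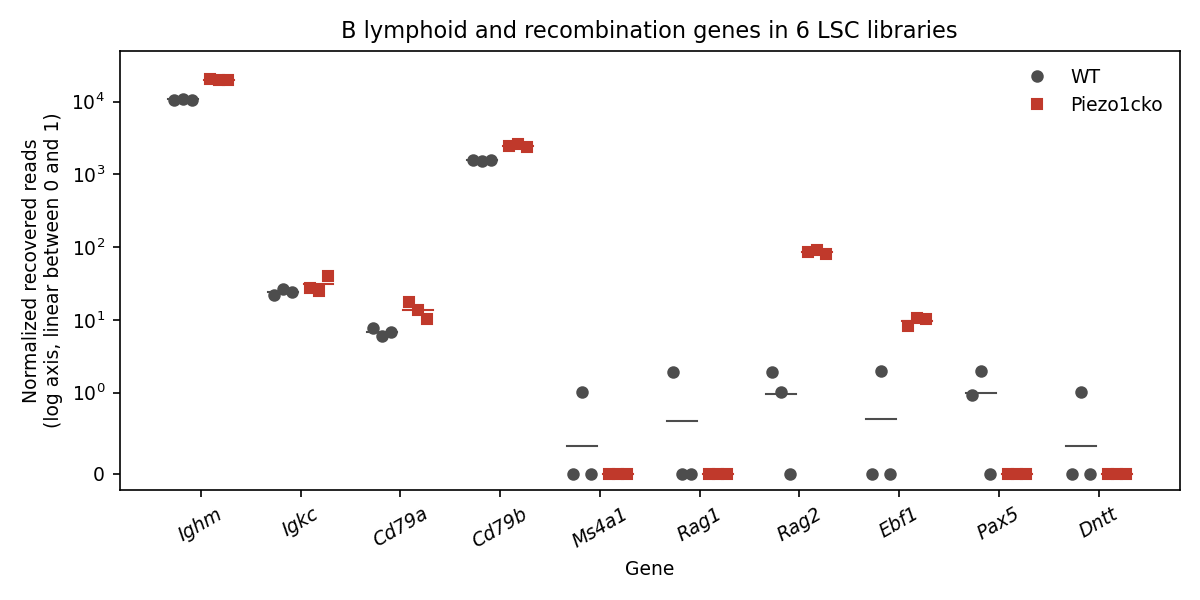
Normalized recovered reads of the 10 genes (log axis, linear between 0 and 1) in the 3 WT libraries (grey circles) and the 3 Piezo1cko libraries (red squares), with lines at the group means. *Ighm*, *Cd79b* and *Cd79a* lie higher in Piezo1cko libraries. *Rag2* goes from at most 1.941 normalized reads in a WT library to 81.4 to 90.65 in Piezo1cko libraries. *Ebf1* goes from at most 2.018 to 8.357 to 10.72, and *Ms4a1*, *Rag1*, *Pax5* and *Dntt* stay at 0 to 2.018.

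*Ighm* encodes the constant region of the μ heavy chain, the first immunoglobulin chain a B cell makes. It lies on chromosome 12 of GRCm38, 113418558 to 113422730, minus strand, with 6 exon blocks. *Ighm* had 10946, 10925 and 11026 reads in WT replicates 1 to 3, and 19376, 20496 and 19567 in Piezo1cko replicates 1 to 3. The groups did not overlap, and the spread within each was small beside the gap. Normalized, these were 10751 ± 237 reads (SD, n = 3) in WT and 20043 ± 175 in Piezo1cko LSCs, a 1.86-fold ratio. The log2 fold change was 0.89 (standard error, SE, 0.02) on recovered reads and 0.66 (SE 0.02) on the deposited scale. Scaled by exon length, *Ighm* stood at 1246 ± 23.4 TPM (reads per exon base, scaled to 1 common total in all libraries, ± SD, n = 3) in WT and 2357 ± 33.5 in Piezo1cko LSCs. By its mean TPM over the 6 libraries it ranked 38 of 25586 genes with reads and a length, and it was thus among the most abundant transcripts of these myeloid cells in both groups.

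*Igkc*, the constant region of the κ light chain (chromosome 6, 70726435 to 70726966, plus strand, 1 exon), was far lower. Its reads were 23, 26 and 25 in WT and 26, 26 and 40 in Piezo1cko replicates 1 to 3, and the groups overlapped. Piezo1cko replicate 3 was the one high library. The log2 fold change of recovered reads was 0.31 (SE 0.25), and 0.10 without Piezo1cko replicate 3. Per exon length, *Ighm* exceeded *Igkc* 119 to 134 times in WT libraries and 138 to 222 times in Piezo1cko libraries. The heavy chain constant region was thus read without a matching level of the κ constant region in every library.

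The table lists 393 immunoglobulin gene segments and constant regions, and 64 of them had reads. After *Ighm*, the rows with the most reads were *Ighj1*, *Ighd*, *Ighv1-41* and *Igkc*. *Ighd*, the δ constant region next to *Ighm*, had 28, 24 and 19 reads in WT and 114, 125 and 130 in Piezo1cko replicates 1 to 3. It was higher in Piezo1cko LSCs without overlap, with log2 fold change 2.40 (SE 0.20, adjusted p = 7.21e-08, limma-voom). *Ighm* was 394 to 585 times *Ighd* per exon length in WT libraries and 152 to 171 times in Piezo1cko libraries, so the ratio of μ to δ constant region reads fell in every Piezo1cko library. Constant regions with fewer reads went both ways. *Iglc2* had 0, 1 and 1 reads in WT and 7, 10 and 8 in Piezo1cko libraries. *Ighe* had 8, 4 and 10 reads in WT, and *Iglc1* 11, 10 and 1, against 0 in all Piezo1cko libraries. For *Igha* the groups overlapped.

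The 4 heavy chain J segments lie between the D segments and *Ighm* on chromosome 12, and a J segment read on its own is the part that recombination would join to a D segment. Their sequences from GENCODE M21 (GRCm38) are shown because 3 of the 4, *Ighj1*, *Ighj2* and *Ighj4*, were called higher, beside 12.6% of all genes. Capitals mark TGGGGNNNNGG, which encodes the tryptophan and glycines shared by heavy chain J segments. *Ighj2* is shown as its 48-base J segment transcript, while its reads were counted over 100 exon bases.
*Ighj1*: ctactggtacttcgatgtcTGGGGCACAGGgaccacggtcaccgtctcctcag
*Ighj2*: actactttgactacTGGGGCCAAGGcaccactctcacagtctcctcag
*Ighj3*: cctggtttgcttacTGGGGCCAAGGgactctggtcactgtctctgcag
*Ighj4*: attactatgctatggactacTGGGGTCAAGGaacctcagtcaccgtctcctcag
*Ighj1* spans chr12:113429781-113429833 and *Ighj4* chr12:113428514-113428567, both on the minus strand. *Ighj1* had 59, 66 and 71 reads in WT and 181, 173 and 170 in Piezo1cko replicates 1 to 3, with log2 fold change 1.45 (SE 0.13, adjusted p = 1.97e-07, limma-voom). All 3 Piezo1cko libraries lay above all 3 WT libraries. Summed over the 4 J segments, the reads were 98, 107 and 101 in WT and 260, 244 and 248 in Piezo1cko libraries, 2.54-fold higher after normalization. Per 1000 *Ighm* reads, the J segments held 8.95 to 9.79 reads in WT and 11.9 to 13.4 in Piezo1cko libraries. J segments are very short and catch few reads, so the share of *Ighm* transcripts that run through a J segment cannot be read from these values.

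V segments gave another picture. Of 346 V segment rows, 47 had reads, with 254 reads over the WT and 256 over the Piezo1cko libraries. Reads of V segments numbered 90, 89 and 75 in WT and 81, 101 and 74 in Piezo1cko replicates 1 to 3, and the groups overlapped. Of the 47 rows, 29 had reads only in WT, 13 only in Piezo1cko and 5 in both, where a row with 1 read can only fall into 1 group. Among the 10 rows with at least 10 reads, 3 were read only in WT, 3 only in Piezo1cko and 4 in both groups. The share of all genes read in only 1 group at such low counts is not given here. Nothing is therefore read from these counts on the use of V segments. *Ighv1-41*, annotated as a pseudogene, held 44, 37 and 36 reads in WT and 42, 42 and 35 in Piezo1cko libraries, with overlap. This row alone held 117 of the 254 WT reads and 119 of the 256 Piezo1cko reads of V segments. *Ighv1-73* and *Iglv1*, named after their values were seen, were rows of the other kind. *Ighv1-73*, also annotated as a pseudogene, had 0 reads in all WT libraries and 5, 21 and 8 in Piezo1cko libraries. This was at least 11.7-fold higher against a floor of 3 reads over the group. *Iglv1*, a λ light chain V segment, had 9, 12 and 9 reads in WT and 0 in all Piezo1cko libraries, at least 9.69-fold lower. V segments of a family are alike in sequence, so the row that a read was assigned to is uncertain. The 5 κ J segments had 0 reads in every library.

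**Figure D2:**
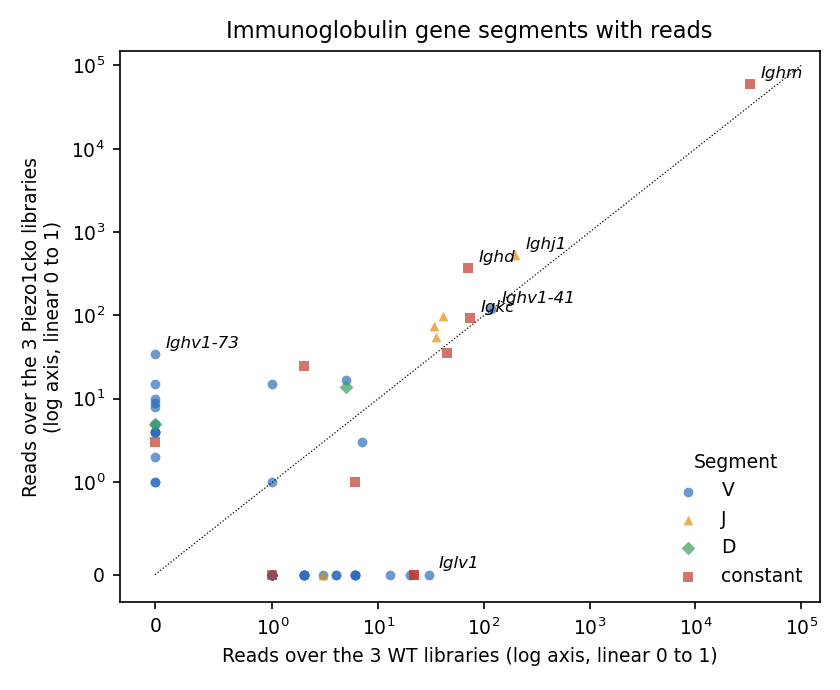
Reads of the 64 immunoglobulin rows with reads, summed over the 3 WT libraries (horizontal) and the 3 Piezo1cko libraries (vertical), on log axes that are linear from 0 to 1, with a dotted line at equal reads. *Ighm*, *Ighd* and the heavy chain J segments lie above the line, while many V segments lie on an axis, with reads in only 1 group.

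CD79A and CD79B form the signaling pair of the B cell receptor, and surface immunoglobulin needs both. *Cd79b* (chromosome 11, 106311341 to 106314762, minus strand) had 1620, 1512 and 1653 reads in WT replicates 1 to 3 and 2349, 2681 and 2353 in Piezo1cko replicates 1 to 3. No WT library reached the lowest Piezo1cko library. Normalized, *Cd79b* was at 1563 ± 33.2 reads (SD, n = 3) in WT and 2487 ± 113 in Piezo1cko LSCs, 1.59-fold, with log2 fold change 0.66 (SE 0.04) on recovered reads and 0.47 (SE 0.03) on the deposited scale. Its TPM of 239 ± 5.80 in WT and 385 ± 16.7 in Piezo1cko LSCs put it at rank 597 of 25586.

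*Cd79a* (chromosome 7, 24897381 to 24902197, plus strand) was read at a very different level. Its reads were 8, 6 and 7 in WT and 17, 14 and 10 in Piezo1cko replicates 1 to 3. The groups were apart by 2 reads before normalization, with Piezo1cko replicate 3 nearest to WT. The ratio was 2.02, with log2 fold change 0.92 (SE 0.37) on recovered reads and 0.05 (SE 0.02) on the deposited scale, where shrinkage is strongest for genes with few reads. Its TPM was 1.03 ± 0.132 in WT and 2.11 ± 0.589 in Piezo1cko LSCs. Per exon length, *Cd79b* exceeded *Cd79a* 206 to 257 times in WT libraries and 141 to 240 times in Piezo1cko libraries. The pair was thus read very unevenly in both groups, and the ratio ranges overlapped. Among these 4 receptor genes the order of length-scaled levels was *Ighm*, *Cd79b*, *Igkc* and then *Cd79a* in WT and in Piezo1cko LSCs alike, each step larger than the spread between libraries.

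*Ms4a1* encodes CD20, a surface protein of mature B cells (chromosome 19, 11249675 to 11266241, minus strand). It had 1 read in WT replicate 2 and 0 in the 5 other libraries. At this depth neither its presence nor a difference was detectable.

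*Rag2* had the widest gap of the 10 genes. It lies on chromosome 2, 101624718 to 101632529, plus strand, with 3 exon blocks, and faces *Rag1* (101638282 to 101649501, minus strand). *Rag2* had 2, 1 and 0 reads in WT replicates 1 to 3 and 83, 93 and 80 in Piezo1cko replicates 1 to 3. Every Piezo1cko library was far above every WT library, and the Piezo1cko libraries were close to each other. Over the group, 3 reads in WT stood against 256 in Piezo1cko LSCs, a ratio of 88.1 with an exact 95% interval of 29.8 to 429.8 for counting error only. The fitted log2 fold change was 6.16 (SE 0.54) on recovered reads, and it ran from 5.48 without WT replicate 3 to 6.66 without WT replicate 1, since it rests on which WT library holds the few reads. On the deposited scale it was 0.59 (SE 0.03), from 4.90 ± 0.010 (SD, n = 3) in WT to 5.49 ± 0.024 in Piezo1cko LSCs. Even so, the level was modest at 5.59 ± 0.298 TPM in Piezo1cko LSCs, against 0.0628 ± 0.0621 in WT.

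*Rag1*, whose product does the cutting and is without function alone in recombination, did not share this. It had 2 reads in WT replicate 1 and 0 in all other libraries, those of Piezo1cko included. *Dntt* had 1 read, in WT replicate 2 (chromosome 19, 41029275 to 41059525, plus strand). In Piezo1cko LSCs, therefore, *Rag2* was read in all 3 libraries, while 0 reads of *Rag1* and 0 of *Dntt* were found in any. A count of 0 over the group allows up to 3 reads, so transcripts below that level would not be detected at this depth. *Rag1* and *Rag2* overlap *B230118H07Rik*, which had 357, 310 and 334 reads in WT and 393, 410 and 396 in Piezo1cko libraries, 1.24-fold higher. It shares 208 of the 3424 exon bases of *Rag2*, on the opposite strand, and 80 of the 6608 of *Rag1*, on the same strand, and in libraries without strand the reads on shared bases cannot be told apart. Reads by position were not analysed here.

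The promoters of *Rag2* and *Rag1* are shown as those of the pair that differed in reads. RefSeq (GRCm38.p6) held a promoter for 6 of the 10 genes, and each sequence is the 250 bases before the RefSeq start, *Rag2* chr2:101624462-101624711 on the plus strand and *Rag1* chr2:101649533-101649782 on the minus strand. Capitals mark CANNTG, the E box, a letter pattern that E proteins such as those of *Tcf3* and *Tcf4* are known to bind, and which reads the same on both strands.
*Rag2* promoter: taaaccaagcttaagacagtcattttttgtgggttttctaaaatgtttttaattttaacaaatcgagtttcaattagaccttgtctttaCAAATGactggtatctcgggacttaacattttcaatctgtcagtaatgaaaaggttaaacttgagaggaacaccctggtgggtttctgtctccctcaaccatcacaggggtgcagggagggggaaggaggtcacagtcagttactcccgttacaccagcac
*Rag1* promoter: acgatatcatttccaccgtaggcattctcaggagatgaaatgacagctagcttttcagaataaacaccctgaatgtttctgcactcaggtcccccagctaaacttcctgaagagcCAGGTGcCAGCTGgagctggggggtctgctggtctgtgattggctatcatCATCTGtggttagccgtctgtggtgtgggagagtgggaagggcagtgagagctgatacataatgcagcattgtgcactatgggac
The *Rag2* window held 1 E box and that of *Rag1* 3. Among 32851 promoter windows of this length, 66.2% held at least 1, so its presence sets neither gene apart. The palindrome TCCCNNGGGA, which EBF1 is known to bind, was in 0.779% of all windows and in neither of these. A letter match is a description and says nothing of binding in these cells.

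A separate list held 20 other genes of recombination and end joining. All 20 had at least 10 reads over the 6 libraries together. On recovered reads 2 were called higher and 0 lower, beside 12.6% and 12.3% of all genes. The median log2 fold change was 0.18 beside -0.01 over all genes. At an adjusted p under 0.05 alone, 11 were higher and 2 lower, beside 30.7% of all genes higher and 32.3% lower. *Polm*, a polymerase of end joining, had 6, 23 and 17 reads in WT and 39, 45 and 46 in Piezo1cko libraries, with log2 fold change 1.70 (SE 0.35, adjusted p = 0.000584, limma-voom). *Paxx*, *Lig4* and *Nhej1*, further end joining factors, had log2 fold changes of 0.85, 0.66 and 0.62, past the p threshold but under a log2 fold change of 1. *Xrcc5*, which encodes the Ku80 subunit and is used by all cells, had 0 reads in all WT libraries and 5, 8 and 12 in Piezo1cko libraries (at least 8.60-fold higher), while *Xrcc6*, its partner, had 2749 to 3220 reads a library. A row at 0 for such a gene limits what a row near 0 can say of any other gene in this table, *Rag1* included.

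*Ebf1* (chromosome 11, 44617317 to 45008091, plus strand, 17 exon blocks) had 0, 2 and 0 reads in WT and 8, 11 and 10 in Piezo1cko replicates 1 to 3. The groups did not overlap. Over the group, 2 reads stood against 29, a ratio of 14.96 with an exact 95% interval of 3.79 to 129.4 for counting error only. The fitted log2 fold change was 3.61 (SE 0.65) on recovered reads, 4.39 without WT replicate 2, which holds both WT reads, and 0.07 (SE 0.01) on the deposited scale. Per exon length this was 0.222 ± 0.0270 TPM in Piezo1cko LSCs, the lowest level of the 5 genes whose groups were apart.

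*Pax5*, the factor that commits cells to the B lineage and a known target of EBF1 (chromosome 4, 44524757 to 44710487, minus strand), had 1, 2 and 0 reads in WT and 0 in all Piezo1cko libraries. The *Ebf1* reads of Piezo1cko LSCs were thus found without reads of *Pax5*. *Pax5* shares 636 of its 8853 exon bases with *5730488B01Rik* and 125 with *Gm12462*, both on the opposite strand.

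**Figure D3:**
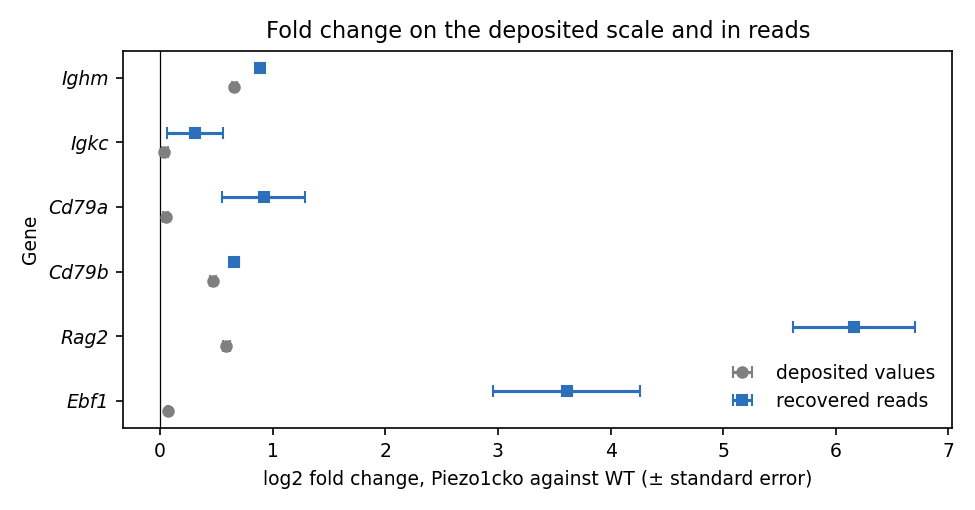
log2 fold changes with standard errors of the 6 genes with at least 10 reads, on the deposited values (grey circles) and on recovered reads (blue squares). Those of *Ighm* and *Cd79b* are close on both scales, while those of *Rag2* and *Ebf1* go from 0.59 and 0.07 to 6.16 and 3.61.

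Among 28 genes of the transcription network around *Ebf1* and *Pax5*, 25 were tested on recovered reads. Of these, 4 were called higher and 4 lower, beside 12.6% and 12.3% of all genes, at a median log2 fold change of 0.08. *Ikzf3*, the lymphoid factor Aiolos, had 6, 12 and 4 reads in WT and 74, 65 and 64 in Piezo1cko libraries, with log2 fold change 3.29 (SE 0.35, adjusted p = 1.15e-06, limma-voom). The receptors *Il7r* and *Flt3*, through which lymphoid progenitors receive growth signals, rose, with log2 fold changes of 2.09 (SE 0.21, adjusted p = 5.8e-07) and 1.30 (SE 0.05, adjusted p = 5.95e-12). *Cbfb*, the partner of RUNX factors, went from 1817, 1585 and 1740 reads to 471, 488 and 437, with log2 fold change -1.85 (SE 0.06, adjusted p = 7.36e-13). *Zfp521*, known to oppose EBF1, was lower (log2 fold change -1.29, adjusted p = 0.0281). On the deposited scale *Cbfb* was the 1 gene of this list past both thresholds, beside 0.561% of all genes called lower.

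A list of 12 common lymphoid progenitor genes, which holds *Rag1* and *Dntt*, had 10 genes tested, none of them a member. Beside 12.6% of all genes higher and 12.3% lower, 5 of these were called higher and 0 lower. The 5 were *Il7r*, *Flt3*, *Cd27*, *Hmgn3* and *Ccr9*, and the median log2 fold change of the list was 1.16. *Lmo2* and *Mef2c*, of the same list, went the other way, by log2 fold changes of -0.74 and -0.21. The summed level of the list was 11212 to 11660 normalized reads in WT and 10792 to 11026 in Piezo1cko libraries, lower in Piezo1cko LSCs, where *Mef2c* and *Lmo2* held most of its reads.

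Genes that mark B cells themselves were read unevenly. Of 30 B lineage identity genes, 7 had 0 reads in every library, among them *Fcer2a*, *Fcmr*, *Blk*, *Bank1*, *Pou2af1* and *Vpreb2*. Of the 20 tested, 8 were called higher and 4 lower on recovered reads, beside 12.6% and 12.3% of all genes. On the deposited scale 0 were called either way, beside 0.257% of all genes higher and 0.561% lower. The median log2 fold change of recovered reads was 0.70. *Fcrla*, an intracellular Fc receptor-like protein of B cells, had 0 reads in WT and 13, 16 and 13 in Piezo1cko libraries, at least 14.4-fold higher (adjusted p = 2.29e-06, limma-voom). *Vpreb1*, a part of the surrogate light chain, had 4, 2 and 2 reads in WT and 13, 12 and 13 in Piezo1cko libraries (log2 fold change 2.14, SE 0.44, adjusted p = 0.000557). *Jchain*, which joins immunoglobulin units in secreted IgM and IgA, was lower, at 40, 38 and 27 reads in WT and 15, 5 and 8 in Piezo1cko libraries (log2 fold change -1.94, SE 0.37, adjusted p = 0.000338).

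Downstream of the receptor, 19 of 21 signaling genes were tested, with 1 called higher, 1 lower and a median log2 fold change of 0.07. For this list and the next, the shares of all genes called were 12.6% higher and 12.3% lower. *Blnk*, the adaptor that links the receptor to its kinases' targets in B cells, had 0 reads in every library. *Rasgrp3* had 2, 2 and 6 reads in WT and 0 in all Piezo1cko libraries, at least 3.23-fold lower. *Dapp1*, an adaptor of the same pathway, was past the p threshold only (log2 fold change 0.97, SE 0.04). Of 14 genes of class switching and plasma cells, 10 were tested, with *Sdc1* called higher and *Xbp1* and *Jchain* lower, and a median log2 fold change of -0.39. With at least 1 read in place of 10, the called genes of this list went from 3 to 5. *Tnfrsf17*, a receptor of plasma cells, had 0 reads in every library.

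**Figure D4:**
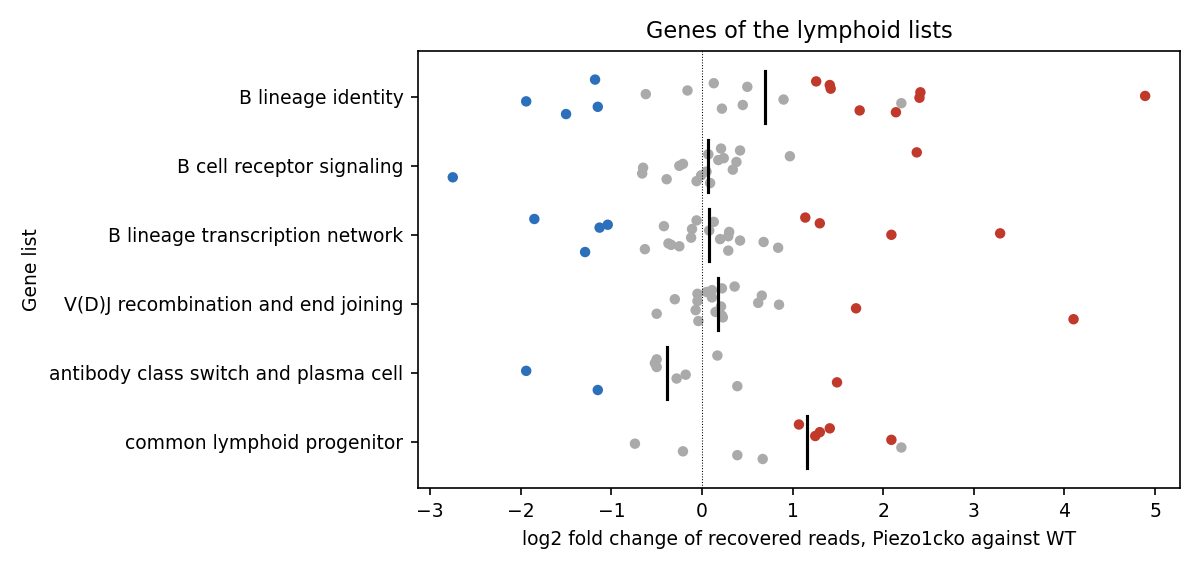
log2 fold change of recovered reads for each tested gene of 6 lymphoid lists, with called genes in red (higher in Piezo1cko) or blue (lower), others in grey, and a black line at each list's median. The medians run from -0.39 for class switching and plasma cells to 1.16 for common lymphoid progenitors.

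Markers of other cell types were counted in the same way, and some lists moved up and others down. All list counts on recovered reads, here and in the next paragraph, stand beside 12.6% of all genes called higher and 12.3% lower. In bulk RNA, more cells of a type and more RNA per cell cannot be told apart. Of 8 NK cell markers, 4 were tested and all 4 were called higher, among them *Klrb1c* with 0 reads in WT and 32, 38 and 52 in Piezo1cko libraries. *Klrb1c* reached 10 reads only through the Piezo1cko libraries, and the markers not tested had fewer than 10 reads. The count of 4 thus depends in part on this filter, and nothing is read from it. The summed NK level was 54.8 to 79.7 normalized reads in WT and 278 to 320 in Piezo1cko libraries, while *Klrd1* and *Prf1* had 0 reads in all Piezo1cko libraries. Of 14 plasmacytoid dendritic cell markers, 13 were tested, 5 were called higher and 1 lower, and the summed level was 12405 to 13007 in WT and 17572 to 18287 in Piezo1cko libraries. *Siglech*, the defining marker, had 0, 1 and 0 reads in WT and 8, 6 and 9 in Piezo1cko libraries, and *Lag3* 0, 1 and 0 against 24, 24 and 26. These genes, too, reached 10 reads only through the Piezo1cko libraries.

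Of 10 MHC class II genes, which B cells and other antigen-presenting cells use, all 10 were tested. On recovered reads 6 were called higher, beside 12.6% of all genes, and on the deposited scale 3, beside 0.257%. The median log2 fold change of these genes was 1.88. Their summed level was 4951 to 5216 normalized reads in WT and 13918 to 14344 in Piezo1cko libraries. Of 10 macrophage markers, 4 of the 8 tested were called higher and 0 lower, with a summed level of 2284 to 2479 in WT and 2360 to 2396 in Piezo1cko libraries and with *C1qa* and *Cd5l* at 0 throughout. Of 16 T cell markers, 9 were tested, 3 were called higher and 2 lower, and the summed level was 230 to 260.0 in WT and 374 to 401 in Piezo1cko libraries, with *Cd8a* and *Trbc2* at 0 throughout. Of 10 neutrophil markers, 1 was called higher and 6 lower of the 9 tested (971.8 to 1037 normalized reads in Piezo1cko libraries against 2588 to 2648 in WT). Of 8 erythroid markers, 3 of the 6 tested were called lower and 0 higher (31.5 to 43.9 against 111 to 122). Of the 16 LSC and myeloid progenitor markers, 1 was called higher and 2 lower. The part of any of these cell types in the reads of *Ighm*, *Rag2*, *Ebf1* and the other members was not tested.

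**Figure D5:**
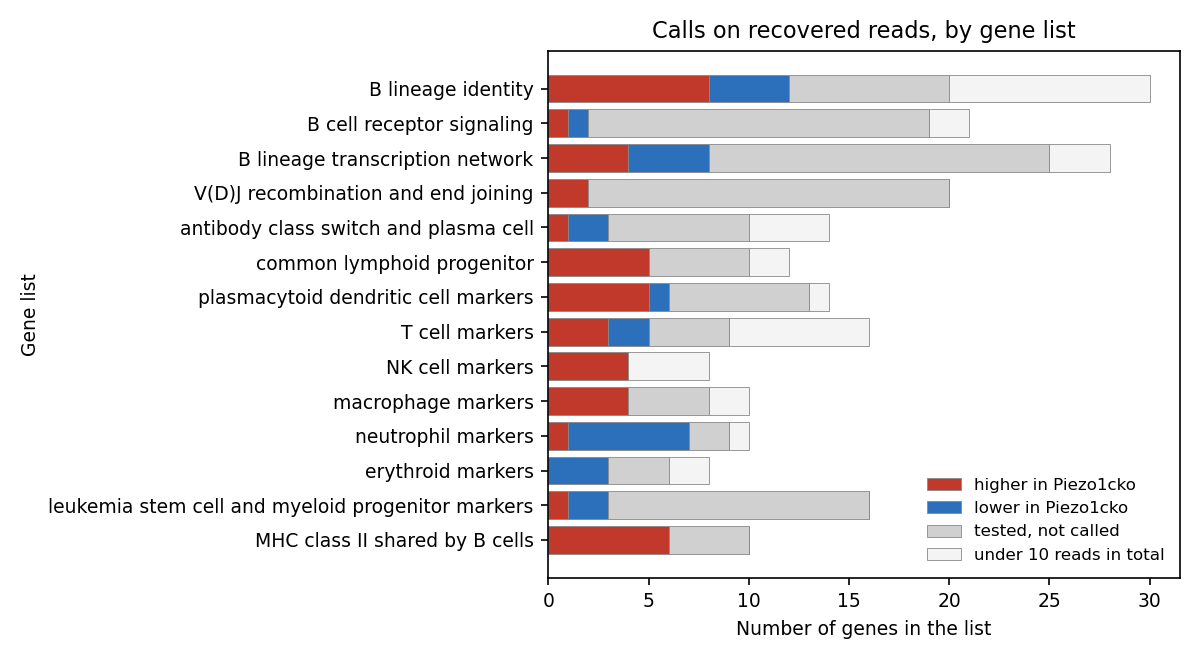
Number of genes in each of the 14 lists that were called higher (red) or lower (blue) in Piezo1cko LSCs on recovered reads, tested and not called (grey), or under 10 reads in total (white). In the B lineage identity list 8 of 20 tested genes were higher and 4 lower. In the list of recombination and end joining 2 of 20 were higher. Of all genes tested, 12.6% were called higher and 12.3% lower.

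Genes near a member on the chromosome were counted beside the 12.6% of all genes called higher and 12.3% called lower. Within 100000 bases of *Ighm*, 7 other genes were tested and 5 were called higher. These 5, *Ighd* and *Ighj1* among them, are all parts of the same heavy chain locus, not independent neighbours. *Gm9134*, a pseudogene and the only tested neighbour that is not an immunoglobulin row, was not called (log2 fold change 0.50, SE 0.41). Near *Cd79b*, 1 of 8 tested genes was called, *Smarcd2*, a chromatin remodeling subunit, with 1959, 1744 and 1873 reads in WT and 432, 471 and 483 in Piezo1cko libraries (log2 fold change -1.97, adjusted p = 1.86e-13, limma-voom). Near *Cd79a*, 1 of 6 was called lower. Near *Rag1*, *Rag2* was the 1 called gene of 4, and near *Rag2* 0 of 3 were called. The 1 tested gene near each of *Igkc*, *Ebf1* and *Pax5* was not called, and near *Ms4a1* and *Dntt* no gene was tested.

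The genes whose deposited values were most like those of a member over the 6 libraries, by Pearson's r in the 10924 genes whose mean value reached 5, were *Rbm5*, *Adgrg1* and *Npy* for *Ighm* (r from 0.9997 to 0.9998), and *Gm17354*, *Trf* and *Sass6* for *Rag2* (0.9997 to 0.9999). For *Cd79b* they were *Tmem104*, *Ppp1r18* and *Ms4a4c* (0.9983 to 0.9995), and for *Ebf1* *Elovl6*, *Spaca9* and *Zswim3* (0.9983 to 0.9986). *Cd79a* was most like *Fopnl*, *Brd8* and *Nipsnap1* (0.9914 to 0.9937), and *Igkc* most like *H2ac20*, *Slc25a28* and *Hook2* (0.9658 to 0.9914). An r over 0.99 was reached by 516 genes for *Ighm*, 510 for *Rag2*, 258 for *Cd79b* and 129 for *Ebf1*. Such values are common here because any gene with a clear step between the groups follows the same pattern over the 6 shared libraries.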

How the data were processed

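Per the submitters' processing notes, the authors trimmed reads with fastp (0.20.1), mapped them to GRCm38 with HISAT2 (2.2.1), counted them with featureCounts (2.0.1) and normalized them with DESeq2 (1.28.1). The deposited values are on a log2 scale in the form of a regularized log, a transform not named in the sources used here. Inverting it gave whole reads that returned the deposited values within 1e-06 for 26390 of 26402 genes with values, and 99.94% of simulated reads exactly.

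Deposited values with a mean of at least 1 were fitted with limma (3.58.1, R 4.3.3; lmFit, eBayes with a trend), and recovered reads of genes with at least 10 reads with limma-voom and TMM scaling. P-values are two-sided and adjusted by Benjamini-Hochberg over all genes tested. They set the difference between groups against the spread between libraries of 1 group, which may not be a spread between mice. Genes were called at an adjusted p under 0.05 with a log2 fold change beyond 1 in either direction. A gene near 0 reads in 1 group could reach 10 reads only through the other group, so nothing is read from its call. Folds against 0 reads used a floor of 3 reads over the group. Intervals and floors cover counting error only, since reads carry no molecular identifiers. Coordinates and exon lengths came from GENCODE M21, and *H2afx* was matched as *H2ax*. Python 3.11.15, numpy 2.4.6, scipy 1.17.1, pandas 2.3.3 and matplotlib 3.10.9 were used.

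The members and gene lists were chosen with earlier results of these data known, so the p-values printed for list genes are descriptive. Named are all members, *Piezo1*, the 5 largest non-overlapping changes of each list at an adjusted p under 0.05 and any gene of lists of up to 15, the 5 immunoglobulin rows with most reads, the 3 most alike genes of each member and up to 3 neighbours. Genes at 0 throughout, *Ighv1-73*, *Iglv1*, *Iglc1*, *Iglc2*, *Ighe*, *Igha*, *Xrcc6* and *B230118H07Rik* were named after their values were seen. Alternatives were other filters and scalings, a replicate block, no fold threshold and each library left out, of which those on recovered reads were partly added after seeing the data. A few genes of the lists are counted but not reported here by name.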

Additional observations from a re-analysis of the deposited data

How the results depend on the processing

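On the deposited scale 137 of 16746 genes were called, and 10556 with no fold change threshold. On recovered reads 4317 of 17352 were called, 4333 on library totals and 4980 with at least 1 read in place of 10. Of the 204 distinct genes on the 14 lists, 9 were called on the deposited scale and 132 with no fold change threshold. On recovered reads 63 of them were called, 63 on library totals and 70 with at least 1 read. Not all 204 were tested, and these list counts are not compared with those of all genes. Recovered reads changed the values, filter, model and scaling together, and the cause of the larger counts was not tested. Without 1 library the counts ran from 134 to 144 on the deposited scale and from 4049 to 4144 on recovered reads, and for the lists from 8 to 9 and from 58 to 63. The other alternatives stayed within 1.5 times these counts.

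Groups shared replicate numbers, but the deviations of same-numbered libraries from their group means correlated by only 0.22, 0.18 and 0.08, and the numbers were not taken as pairs. Each library correlated best with its own number. A replicate block gave 137 genes on the deposited scale and 4356 on recovered reads, and 9 and 63 for the lists.

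Of 135 alternative log2 fold changes of the 6 tested members, 0 changed sign, while 26 were counted as moved in size from their main value. On recovered reads they ran from 0.88 to 0.92 for *Ighm*, 0.62 to 0.69 for *Cd79b*, 0.74 to 1.12 for *Cd79a* (lowest without Piezo1cko replicate 1), 0.10 to 0.45 for *Igkc*, 5.48 to 6.66 for *Rag2* and 3.21 to 4.39 for *Ebf1*. At this depth, *Ms4a1*, *Rag1*, *Pax5* and *Dntt*, with 1 to 3 reads in all, allow no statement on a difference.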
